A study of Mus musculus with 3 samples.

Results

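Kinesins are motor proteins that use ATP to walk along microtubules or to take their ends apart. In dividing cells one set of them builds the spindle, moves chromosomes and completes cytokinesis, and in many cells another set carries vesicles, organelles and mRNA or builds cilia. YTHDF2 is a cytoplasmic reader protein that recognises N6-methyladenosine (m6A) in mRNA and hastens the decay of what it binds. In mRNA, m6A lies in a short sequence context called DRACH, most often in long internal exons and around the stop codon, and it is sparse near splice junctions. The tested kinesins had a median of 3.85 exons per kilobase of merged exonic sequence, compared with 2.87 for all tested protein-coding genes. They varied widely, from 0.789 in Kif24 to 7.26 in Kif15, and their longest exons were long, with a median of 2980 bases compared with 1649. In the RefSeq transcript of most members, however, the longest exon was the last one and not internal. In Kif2a the last exon had 3229 bases and the longest internal exon 205. The longest exon was internal in Kif20b, Kif22, Kif24, Kif26a and Kif26b.

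The transcripts of this family were examined in RNA immunoprecipitation sequencing (RIP-seq), in which RNA that comes down with a protein is sequenced beside the RNA of an input library. The members were all protein-coding genes named Kif followed by digits and optional letters, with pseudogenes left out, which gave 38 of the 49997 genes in the table. Of these, 36 passed the filter on low counts and were tested. The cells were mouse embryonic stem cells (ESCs), of the line E14 per the labels, treated with doxycycline (Dox) for 24 h, in a system that carries a Dox-inducible Dux transgene and a tdTomato reporter under the MERVL promoter. All 3 libraries came from Dox-treated cells, so no untreated control enters any comparison. There was 1 input library and there were 2 libraries of the YTHDF2 immunoprecipitation (IP). No control-antibody IP was analysed here. The values were raw counts, which summed to between 35259827 and 36986994 per library. The input had no replicate and the labels do not say that the IP libraries came from separate cultures. Each p-value therefore rests only on the spread between the 2 IP libraries, which the test pools over genes and which may be technical. The spread of the input was not measured.

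The cells carried the markers their label implies. The 10 ESC markers summed to 12350 TPM (counts per exonic length, scaled to the same sum in each library) in the input and to 11640 and 11740 TPM in the IP libraries, with none at 0. The 8 markers of 2C-like cells, which resemble the 2-cell embryo, summed to 1915 TPM in the input and to 3174 and 3153 TPM in the IP libraries. Markers of other cells were low in each library, with sums of at most 32.67 TPM for 6 fibroblast genes (2 of them at 0), 4.93 TPM for 5 neuron genes, 7.54 TPM for 5 genes of multiciliated cells and 9.33 TPM for 4 primitive endoderm genes. Nearly all of the fibroblast sum was Thy1, at 31.9 TPM in the input, where the ESC marker Lin28a had 33.9 TPM. The part of these differences in marker levels in the values below was not tested.

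To show what the reader protein could meet in these mRNAs, the last 100 coding bases before and including the stop codon are given. Among members with a mean of at least 100 counts, they are those of the 3 with the highest log2 fold change and the 3 lowest after Kif20a. The window of Kif20a, the lowest member, was not included. Capitals mark matches to DRACH on the transcript strand, that is A, G or T, then A or G, then A, then C, then A, C or T, and matches may overlap. The sequences are from the RefSeq transcripts on GRCm38.p6, and the first 3 belong to the depleted members Kif2a (chr13:106962139-106964354, minus strand), Kif11 (chr19:37420291-37420390, plus strand) and Kif18b (chr11:102906200-102906518, minus strand). The other three belong to Kif3b (chr2:153329748-153330155, plus strand), Kif3c (chr12:3402604-3402885, plus strand) and Kif1c (chr11:70728780-70728879, plus strand). In Kif2a, Kif18b, Kif3b and Kif3c the span crosses an intron, which is not printed.
Kif2a: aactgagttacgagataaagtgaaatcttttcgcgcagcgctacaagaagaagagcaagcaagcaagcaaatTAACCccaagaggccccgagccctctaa
Kif11: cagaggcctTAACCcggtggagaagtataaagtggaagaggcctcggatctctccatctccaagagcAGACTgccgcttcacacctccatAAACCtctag
Kif18b: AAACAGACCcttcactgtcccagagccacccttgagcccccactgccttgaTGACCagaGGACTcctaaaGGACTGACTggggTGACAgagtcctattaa
Kif3b: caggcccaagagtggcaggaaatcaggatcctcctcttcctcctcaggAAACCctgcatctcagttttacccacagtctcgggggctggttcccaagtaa
Kif3c: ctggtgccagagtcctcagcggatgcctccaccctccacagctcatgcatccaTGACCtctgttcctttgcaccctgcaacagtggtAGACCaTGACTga
Kif1c: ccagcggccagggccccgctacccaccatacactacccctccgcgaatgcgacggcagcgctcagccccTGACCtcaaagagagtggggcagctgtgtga

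The matches did not sort with the direction of change. Kif18b, a depleted member, held 7 matches, of which 2 were GGACT, whereas Kif1c, the enriched member, held 1 and no GGACT. Kif2a and Kif3b also held 1 each, and Kif11 and Kif3c held 3 each. Among all 21000 coding genes with such a window, 88.2% held at least 1 DRACH match and 11.4% held GGACT. Among the 36 tested kinesins, 35 windows held a DRACH match, the exception being Kif4, and 4 held GGACT. A match is a stretch of letters and not a measured m6A site.

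Most spindle and cytokinesis kinesins were lower in the YTHDF2 IP than in the input, with 7 of 12 depleted, and Kif1c was the one member called enriched. None of the 10 cilia kinesins was called. Several of these, among them Kif17 and Kif19a, had few counts, and TPM scaling called Kif17 and Kif19a enriched. The test was edgeR's quasi-likelihood F test over 19601 genes, adjusted by Benjamini-Hochberg, and calls needed both an adjusted p under 0.05 and more than a 2-fold difference. Of the 36 tested kinesins, 1 was enriched and 9 were depleted, compared with 15.0% and 13.0% of all tested genes, so the depleted share of the kinesins was 25%. Their median log2 fold change was −0.20, beside 0.01 over all tested genes. It was −0.0890 without IP replicate 2, −0.0516 under TPM scaling and 0.03 over the 24 members that share under 1% of their exonic bases with another gene. With the adjusted p-value alone, 9 were higher and 15 were lower in IP, beside 28.4% and 28.9% of all genes. Both IP libraries lay above the input for 14 members (44.2% of all genes) and below it for 21 members (45.3% of all genes). These are counts beside a background and were not tested as a set.

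The family made up 0.157% of the input library's counts (95% Wilson interval 0.156% to 0.158%). In the IP libraries its share was 0.134% (0.132% to 0.135%) in replicate 1 and 0.137% (0.135% to 0.138%) in replicate 2. The intervals cover counting error only. They take the mates of a pair, which were counted singly, as independent, so they are too narrow even for that. The 13 spindle and cytokinesis genes went from 0.102% of the input to 0.0662% and 0.0685% of the IP libraries. The 9 cargo genes went from 0.0412% to 0.0501% and 0.0503%. Without Kif1c they went from 0.0333% to 0.0318% and 0.0317%. Within that remainder Kif5b, Kif5a, Kif16b and Kif1a fell, while Kif13a, Kif1b and Kif5c rose. The 10 cilia genes went from 0.0120% to 0.0148% and 0.0150%.

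**Figure D1:**
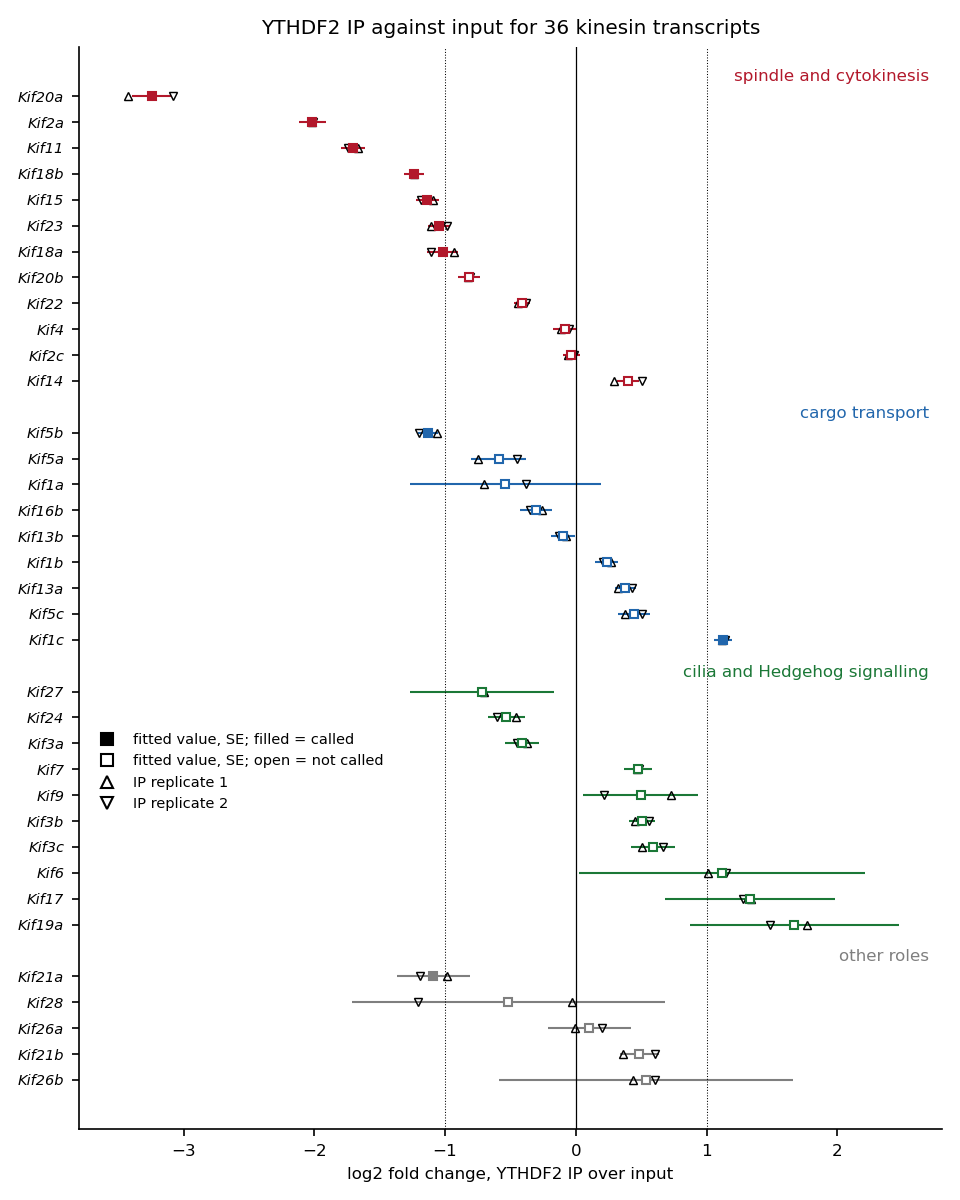
Log2 fold change of YTHDF2 IP over input (horizontal axis) for the 36 tested kinesins, grouped by role. Squares are the fitted values with their SE, filled where the gene was called, and triangles are the log2 ratios of the single IP libraries to the input. Kif20a is lowest at −3.24, 7 of the 12 spindle genes are filled on the left, and Kif1c at 1.13 is the only filled square on the right.

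The spindle motors held most of the depleted members. Of 12 tested, 7 were depleted (58.3%, beside 13.0% of all genes), none was enriched (beside 15.0%), and the median log2 fold change was −1.03. Kif20a, which carries the chromosomal passenger complex to the central spindle, had 1456 input counts, against 138 and 178 in IP. It was 9.47-fold lower in IP (log2 fold change −3.24 ± 0.15 SE, adjusted p = 3.15e-20, edgeR), and both IP libraries lay far below the input. Of its exonic bases, 66.4% overlap exons of Cdc23 or Brd8 on the opposite strand. Reads there could not be assigned without strand, so its count is uncertain.

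Kif2a, a kinesin-13 motor that depolymerises microtubules at spindle poles, had 2741 input counts and 691 and 704 IP counts. The fall was 4.04-fold (−2.01 ± 0.10, adjusted p = 1.19e-19), and the IP libraries were nearly equal. It shares 34.1% of its exonic bases with Dimt1 on the opposite strand and is uncertain in the same way. Kif2c, a close relative, which removes faulty attachments at centromeres and was the second most abundant kinesin per length in the input (79.3 TPM), had 4652, 4561 and 4778 counts and a log2 fold change of −0.03 ± 0.07 (adjusted p = 0.686). That sign turned positive under total-count or TPM scaling and without the trend on exons per kilobase, where the value was 0.32. Kif2b had counts of 2, 4 and 0 and was not tested.

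Kif11, which slides antiparallel microtubules to push the poles apart, had 3111 input counts and 1003 and 960 IP counts. It was 3.26-fold lower (−1.70 ± 0.09, adjusted p = 1.70e-18). Kif15, which helps to hold the poles apart beside Kif11, fell from 2909 counts to 1392 and 1328. The fall was 2.20-fold (−1.14 ± 0.09, adjusted p = 6.77e-14). Both genes were therefore below the input by more than 2-fold in each IP library. Kif11 is also listed on a contig outside the main chromosomes, as are Kif1b and Kif1c, and reads that map to both copies may have been left out of its count. Without these 3 genes, 8 of 33 kinesins were depleted (24.2%, beside 13.0% of all genes) and none was enriched (beside 15.0%).

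Kif18a and Kif18b, the kinesin-8 motors that act at the plus ends of spindle microtubules, were both depleted, whereas the kinesin-8 motor of cilia, Kif19a, was not. Kif18b had 4010 input counts and 1739 and 1764 IP counts, a 2.35-fold fall (−1.24 ± 0.08, adjusted p = 9.24e-17), and its single-library ratios were −1.23 and −1.24. Kif18a, which damps the movement of aligned chromosomes, had 1363, 728 and 654 counts and fell 2.03-fold (−1.02 ± 0.12, adjusted p = 1.93e-09). Kif18a lay close to the threshold, and its ratio in IP replicate 1 was −0.93.

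Kif23, the motor of centralspindlin, which organises the midzone, had 3236 input counts and 1529 and 1697 IP counts. The fall was 2.06-fold (−1.05 ± 0.09, adjusted p = 1.99e-13), with IP replicate 2 at −0.98. Kif20b, a relative that acts late in cytokinesis, had 3005, 1732 and 1780 counts. Its log2 fold change of −0.82 ± 0.08 passed the adjusted p (6.74e-11) but not the fold threshold. Over all depleted kinesins, 6 of 9 were over 2-fold lower in each IP library taken alone.

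Neither chromokinesin, a motor that binds chromosome arms, was called. Kif22 was the most abundant kinesin per length in the input, at 170 TPM, and had 6746 counts there and 5059 and 5367 in IP. Its log2 fold change was −0.41 ± 0.06 (adjusted p = 4.18e-07), which is 1.33-fold lower. Kif4, with 2041, 1923 and 2034 counts, had a log2 fold change of −0.08 ± 0.09 (adjusted p = 0.439), and its sign turned positive under total-count or TPM scaling and without the GC trend, where the value was 0.31. Kif14, which acts in cytokinesis, was the one member of the spindle group above the input in both IP libraries, with 2283, 2848 and 3350 counts (0.40 ± 0.08, adjusted p = 1.25e-04).

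Without the genes that share over 5% of their exonic bases with another gene, which removes Kif20a and Kif2a, 5 of 10 spindle motors were depleted and their median was −0.92. The 7 calls also depended on scaling, composition and the dispersion. Scaling to TPM left 4 of them, and removing the trend of the log2 fold change on GC content or on exons per kilobase left 4 each. A fixed dispersion of 0.1 left 3 and also ended the call of Kif18b through its adjusted p (0.0993), since its fold stayed over 2. Kif15, Kif18a and Kif23 were lost under each of these settings, down to −0.65 for Kif15 and −0.35 for Kif18a without the GC trend and −0.65 for Kif23 without the exon trend.

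**Figure D2:**
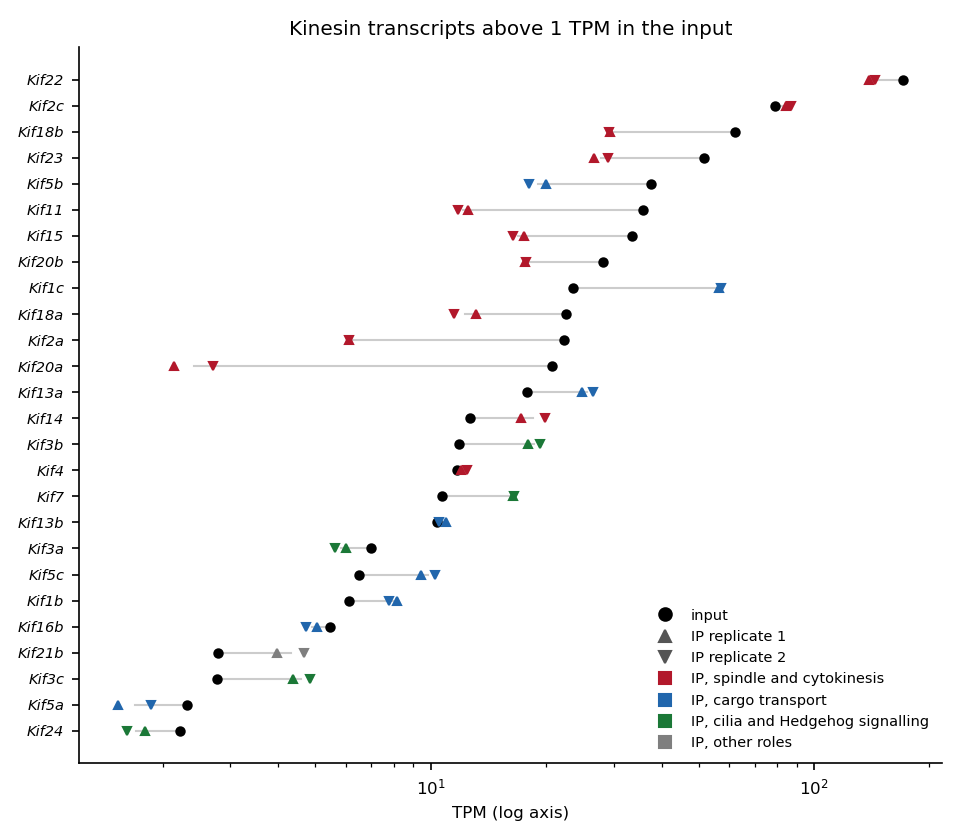
Level of each kinesin above 1 TPM in the input, on a log axis, with the input as a black dot and the IP libraries as coloured triangles by role. Kif22 at 170 TPM and Kif2c at 79.3 TPM stand highest, Kif20a drops from 20.8 TPM to 2.14 and 2.71, and Kif1c rises from 23.5 TPM to 56.4 and 57.2.

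Of 9 cargo motors, 1 was enriched and 1 was depleted (11.1% each, beside 15.0% and 13.0% of all genes), with a median log2 fold change of −0.10. That median was the value of Kif13b, whose sign turned under TPM scaling. Kif1c, a kinesin-3 motor that carries vesicles and mRNA to the cell periphery, had 2926 input counts and 6463 and 6689 IP counts. It was 2.19-fold higher in IP (1.13 ± 0.07, adjusted p = 2.97e-17), with single-library ratios of 1.11 and 1.14. The call ended when the GC trend was removed, where the value was 0.82, and with a fixed dispersion of 0.1, where the highest adjusted p over its alternatives was 0.179.

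Kif5b, the ubiquitous heavy chain of conventional kinesin, moved in the opposite direction from Kif1c, with 4072 input counts and 1987 and 1835 IP counts. It fell 2.19-fold (−1.13 ± 0.08, adjusted p = 2.17e-15). Its call ended with the fixed dispersion, and its value fell just short of the fold threshold under TPM scaling (−0.98) and without the exon trend (−0.996). Without the GC trend it was −0.56. The other heavy chains of conventional kinesin had smaller values. Kif5a had 347, 211 and 263 counts (−0.59 ± 0.21, adjusted p = 0.0155), and Kif5c had 803, 1066 and 1183 counts (0.45 ± 0.12, adjusted p = 0.00171). Both of these are known mainly from neurons, and each was under 7 TPM in the input, compared with 37.6 TPM for Kif5b.

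The remaining kinesin-3 cargo motors had log2 fold changes between −0.54 and 0.38. Kif13a, which moves recycling endosomes, was higher in IP at 0.38 (adjusted p = 8.84e-05), as was Kif1b, a carrier of mitochondria and synaptic vesicle precursors, at 0.24 (adjusted p = 0.0223). Kif16b, an early endosome motor, was lower at −0.30 (adjusted p = 0.0325). Kif13b at −0.10 (adjusted p = 0.361), whose sign turned under TPM scaling and without the exon trend, and the neuronal Kif1a at −0.54, with 29, 18 and 23 counts (adjusted p = 0.557), did not pass the test.

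Among 10 motors of cilia and Hedgehog signalling, none was called, beside 15.0% enriched and 13.0% depleted of all genes. Their median log2 fold change was 0.50. The heterotrimeric kinesin-2, which drives transport toward the ciliary tip, pairs Kif3a with Kif3b. Kif3a had 902, 712 and 683 counts and was lower in IP (−0.41 ± 0.13, adjusted p = 0.00601), whereas Kif3b had 1276, 1779 and 1947 counts and was higher (0.51 ± 0.10, adjusted p = 4.04e-05). These 2 subunits of one motor thus lay on opposite sides of the input in both IP libraries. Kif3c, an alternative partner of Kif3a, was higher at 0.59 (adjusted p = 0.00291), although 44.6% of its exonic bases overlap genes on the opposite strand.

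Kif7, which regulates Gli factors at the ciliary tip, had 1032, 1455 and 1492 counts (0.47 ± 0.11, adjusted p = 2.65e-04), and removing the GC trend turned its value to −0.15. Kif24, a motor that restrains cilium formation, was lower at −0.53 (adjusted p = 0.00138). The motors of motile or specialised cilia had few counts. Kif19a, which limits cilium length and was the highest of the group at 1.67 ± 0.80, had 10, 36 and 30 counts (adjusted p = 0.0720), and Kif17 had 16, 42 and 41 counts (1.33, adjusted p = 0.0801).

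Kif6 with 8, 17 and 19 counts (adjusted p = 0.404) and Kif9 with 49, 83 and 59 counts (adjusted p = 0.355) did not pass either. Kif27, the lowest of the cilia group, had 48, 30 and 30 counts (−0.72 ± 0.55, adjusted p = 0.278). TPM scaling, under which Kif19a (1.82, adjusted p = 0.0468) and Kif17 (1.48, adjusted p = 0.0485) were called enriched, was the one alternative that called either of them.

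Of the other motors, Kif21a was depleted. This kinesin-4 motor, which slows microtubule growth, had 226 input counts and 116 and 102 IP counts, a 2.13-fold fall (−1.09 ± 0.28, adjusted p = 8.83e-04). The call ended under 5 of 13 alternatives, among them total-count scaling and removal of the GC trend, where the value was −0.66. Its close relative Kif21b had 466, 610 and 733 counts and was higher (0.49 ± 0.15, adjusted p = 0.00618). Kif26a, an atypical member, was the only tested kinesin with its IP libraries on opposite sides of the input, at −0.0044 and 0.20, with 114, 116 and 136 counts (0.10 ± 0.32, adjusted p = 0.804). Its value was −0.75 without the GC trend and −0.0224 without the exon trend. Kif26b, the highest of this group at 0.54 ± 1.12, had 10, 14 and 16 counts (adjusted p = 0.711), and Kif28 had 14, 14 and 6 (adjusted p = 0.741). Kif12 had no count in any library, where 3 counts, the limit a count of 0 allows, correspond to 0.0811 CPM in the input.

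**Figure D3:**
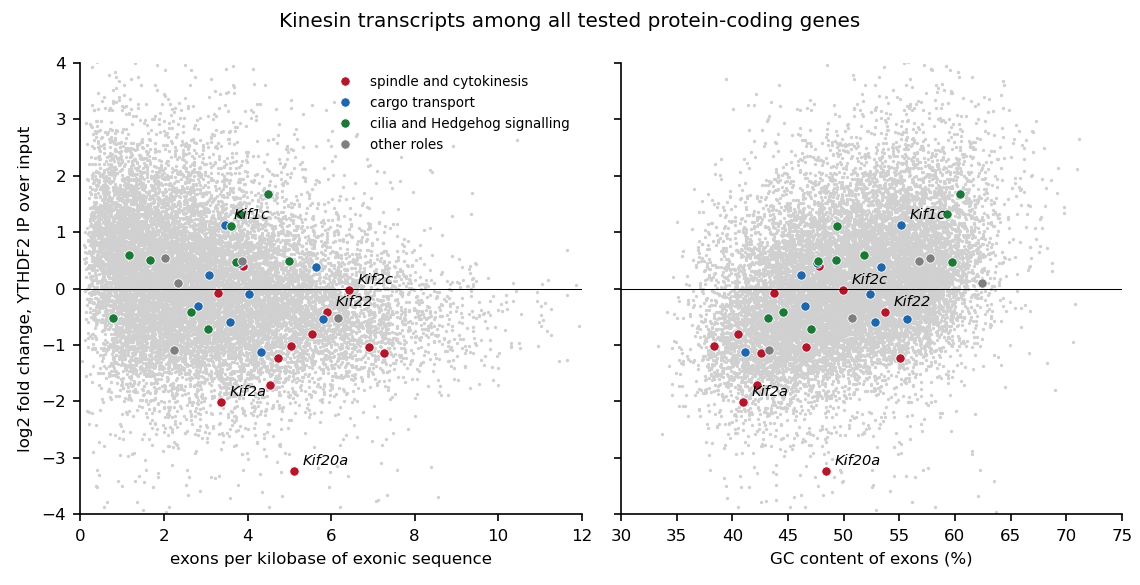
Log2 fold change of IP over input (vertical axis) against exons per kilobase of exonic sequence (left) and GC content of exons in percent (right), with kinesins coloured by role and the 15201 tested protein-coding genes in grey. Points beyond the axes (161 genes left, 154 genes right) are not drawn. The spindle motors lie mostly right of 4 exons per kilobase and left of 50% GC, while the exon-dense Kif2c and Kif22 sit at −0.03 and −0.41.

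Exon density, GC content and motif density were compared with the log2 fold change as descriptions, since genes are not independent replicates. Across the 36 members, exons per kilobase correlated with the log2 fold change at −0.27 (Pearson r) and −0.32 (Spearman rho), close to −0.23 and −0.28 over 15200 coding genes. Among coding genes with 4.465 or more exons per kilobase, the 3800 most exon-dense, 16.8% were depleted and 5.37% enriched. This class held 14 kinesins, of which 6 were depleted and none enriched. Single members departed from this order. Kif2c, with 6.43 exons per kilobase, did not pass the test, while Kif2a, with 3.36, fell 4.04-fold.

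GC content correlated with the log2 fold change of the 36 members at r = 0.56 and rho = 0.60, beside 0.33 and 0.36 over coding genes. Of the 10 kinesins with a GC content of 45.7% or less, the class of the 3801 coding genes lowest in GC, 6 were depleted, where 26.4% of coding genes were. The density of DRACH ran the other way, at r = −0.50 and rho = −0.53 among kinesins and −0.05 and −0.06 over coding genes. GC content and DRACH density were themselves correlated among kinesins at r = −0.65, so the relation of each to the log2 fold change cannot be told apart here. GGACT, the form of DRACH most often methylated, had the opposite sign, at r = 0.51 and rho = 0.46, beside 0.14 and 0.16 over coding genes. Its relation to GC content was not examined. The highest densities of GGACT were 2.30 per kilobase in Kif17, which had few counts, and 2.23 in Kif18b, which was depleted.

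Kinesin genes whose names fall outside the rule were counted apart. Of 6, 1 was enriched (16.7%, beside 15.0% of all genes) and none was depleted (beside 13.0%), with a median of 0.51. Kifc3, a minus-end motor at adherens junctions, had 937 input counts and 2619 and 2921 IP counts (2.88-fold higher, 1.52 ± 0.10, adjusted p = 2.46e-16). Kifc1, a minus-end motor that gathers spindle poles, was higher at 0.84 (adjusted p = 1.07e-14), as was Kifc5b at 0.74 (adjusted p = 3.64e-10). Cenpe, the kinetochore motor, at −0.04 (adjusted p = 0.662), Stard9 at −0.10 (adjusted p = 0.681) and Kifc2 at 0.29 (adjusted p = 0.481) did not pass the test. Kifc1 and Kifc5b are closely similar copies, so their counts are uncertain.

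Partners of the motors were set beside them. Of all tested genes, 15.0% were enriched and 13.0% were depleted. Of 11 kinesin light chains and adaptors, Klc4, a light chain, was enriched (1.60 ± 0.09, adjusted p = 1.27e-17) and Kifap3, the accessory subunit of kinesin-2, was depleted (−1.01 ± 0.12, adjusted p = 1.28e-09), with a median of −0.04 that turned positive under TPM scaling. Of 24 spindle regulators that are not motors, 8 were depleted (33.3%) and none enriched, with a median of −0.75. They ran from Prc1, the midzone crosslinker, at −2.65 ± 0.09 (adjusted p = 2.64e-24) to Nuf2, a kinetochore protein, at 0.82 ± 0.07 (adjusted p = 6.81e-13).

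The other motor families and the tubulins were counted in the same way, beside 13.0% depleted and 15.0% enriched of all tested genes. Among 25 tested dynein and dynactin genes, 5 were depleted (20.0%) and 2 enriched (8.0%). Their median was −0.71, from Dctn4 at −1.81 to Dctn5 at 1.53. Of 33 tested myosin heavy chains, 2 were depleted (6.06%) and 1 was enriched (3.03%), with a median of −0.03. Their extremes, Myo15 (11, 0 and 7 counts) and Myo3a (0, 12 and 4 counts), did not pass the test. Of 18 tested tubulins, the track of these motors, 1 was depleted (5.56%) and 2 were enriched (11.1%). Their median was −0.04, from Tuba1a at −1.24 to Tuba8 at 1.25. The myosin and tubulin medians turned positive under TPM scaling.

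**Figure D4:**
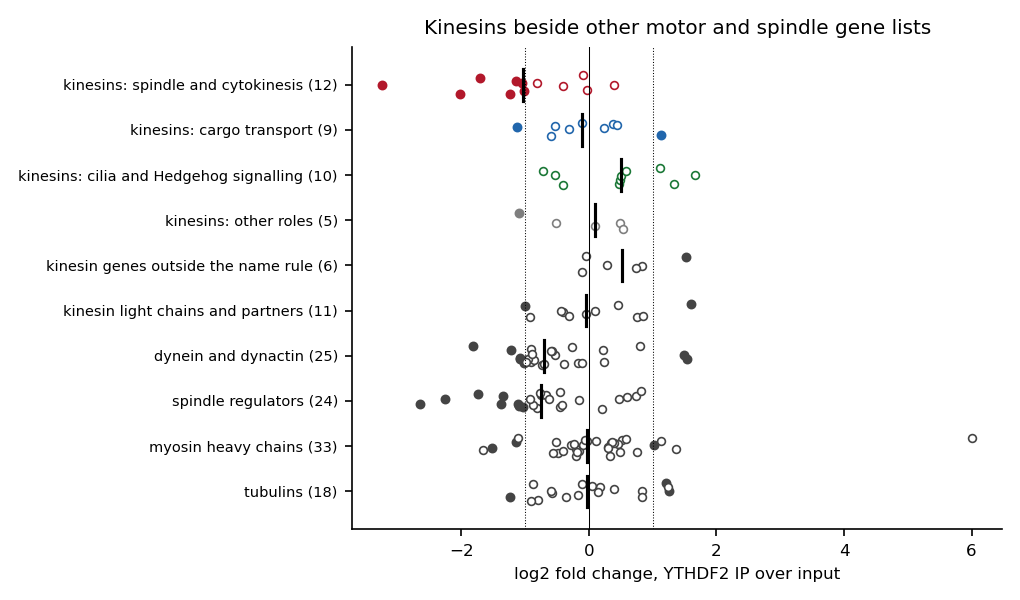
Log2 fold change of IP over input for the kinesin role groups and for other gene lists, with 1 point per tested gene, filled where called, and the median as a black bar. The vertical spread of points within a row carries no value. Spindle kinesins (median −1.03), spindle regulators (−0.75) and dynein and dynactin genes (−0.71) lie left of 0, and cilia kinesins (0.50) lie right of it.

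The 2 IP libraries differed little for the well-counted members. Among the 28 kinesins averaging 100 counts or more, the median difference between the log2 ratios of the IP libraries was 0.09 and the largest was 0.34. In that subset 9 members (32.1%) were depleted, beside 14.6% of all genes at that depth, and the median log2 fold change was −0.36, beside −0.02. Of the 24 members that share under 1% of their exonic bases with another gene, 5 were depleted and 1 was enriched. These were 20.8% and 4.17%, beside 13.0% and 15.0% of all tested genes.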

How the data were processed

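RIP-seq counts of E14 mouse ESCs were used, with 1 input and 2 YTHDF2 IP libraries grouped by title. The deposited values are raw counts per gene, which the authors obtained with featureCounts 2.0.3 (named in the file header) from exons of mm10 RefSeq genes, with strand unused and mates counted singly. The submitters' processing notes name fastp 0.19.4, HISAT2 2.2.1 and DESeq2 1.40.2. By default that counter leaves out reads with several locations or over several genes. The methods describe an IP from cleared lysate, whereas the labels describe purified total RNA, and the counts do not settle which was done.

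IP was tested against input in edgeR 4.0.16 under R 4.3.3 (filterByExpr, TMM, robust quasi-likelihood F test, 1 residual degree of freedom). The SE is the log2 fold change over the square root of F. Single-library ratios had 0.5 added to each count. TPM used the exonic length in the table. The test was checked on simulated data. Gene structure, GC content and motifs came from the merged exons on GRCm38.p6. The 3 names left out were Kif16bos, an antisense noncoding RNA, and the pseudogenes Kif22-ps and Kif4-ps. There were 0 columns of other samples.

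The members and lists were chosen with earlier results of these data known. All members were named. Full statistics were given for called members, the highest and lowest of each role, the 5 with the highest input TPM, and any with IP libraries on opposite sides of the input. Values for other members and the Kifc genes were added for completeness.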

Additional observations from a re-analysis of the deposited data

How the results depend on the processing

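Kif20a, Kif2a and Kif11 stayed depleted in all 13 alternatives that gave a test, Kif18b in 12, Kif15 and Kif5b in 9, Kif21a and Kif23 in 8, and Kif18a in 7, and Kif1c stayed enriched in 11. Depleted kinesins numbered 9 in the reported fit, 4 under TPM scaling, 3 with a fixed dispersion of 0.1, 4 without the GC trend, 5 without the trend on exons per kilobase and 15 by adjusted p alone. For spindle motors, TPM scaling, the fixed dispersion and removal of the GC and exon trends left 4, 3, 4 and 4 of the 7. Enriched kinesins numbered 3 under TPM scaling, 0 with the fixed dispersion, 0 without the GC trend and 9 by adjusted p alone.

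The kinesin median moved to −0.0516 under TPM scaling, −0.340 with a mean of at least 100 counts and −0.0861 without the exon trend, and ranged from −0.240 to −0.0890 with 1 IP library left out. TPM scaling raised the median of all genes by 0.151 and total-count scaling by 0.0957. Under TPM scaling 64.0% of all calls were enrichments, beside 53.6% in the reported fit, and the fixed dispersion left 1577 enriched and 1531 depleted genes of 2936 and 2543.

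Signs turned for Kif13b (0.04999 under TPM, 0.00273 without the exon trend), Kif4 (0.0110 by total count, 0.0664 under TPM, 0.311 without the GC trend), Kif2c (0.0613 by total count, 0.117 under TPM, 0.324 without the exon trend), Kif26a (−0.75 without the GC trend, −0.0224 without the exon trend) and Kif7 (−0.15 without the GC trend). The cause was not tested.

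Under TPM scaling and without the exon and GC trends, in that order, medians were 0.67, 0.63 and 0.41 for kinesins outside the name rule, 0.11, 0.27 and −0.46 for light chains and partners, −0.56, −0.46 and −0.63 for dynein and dynactin, −0.60, −0.50 and −0.62 for spindle regulators, 0.12, 0.27 and −0.34 for myosins, and 0.12, −0.12 and −0.30 for tubulins. With 1 IP library left out, the myosin median was −0.0842 or 0.0937.

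No paired analysis was possible because the lone input carries no number that would tie it to either IP library. The unreplicated input and the absence of a control-antibody IP from the libraries used limit every value. The non-robust fit, added after seeing the data, and the DESeq2 test each kept all 36 members on their side of the threshold and in their direction.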
